A study of Rattus norvegicus with 7 samples.

Results

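The transcripts described here encode 10 proteins of early secretory traffic in the rat: the p24 cargo adaptors Tmed9, Tmed2, Tmed3 and Tmed10, the Golgi proteins Golph3 and Golph3l, the coat subunits Copb1 and Copb2, the fusion protein Sec22b and the cargo lectin Lman1. Their probes were found by matching each transcript probe's accession, without its version, to the RefSeq transcripts of these genes. That gave 11 of the 33849 transcript probes on the array, for 9 of the 10 genes. Tmed9 and Tmed2 had 2 probes each. No probe was matched to Golph3, which was not analysed here. Tmed9 and Golph3l were chosen by their P minus NP signal in these same arrays, so their values between the lines are given as a description. The other members were added for their place in the same pathway.

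The RNA was extracted from whole brains of male adult Wistar rats of 2 selectively bred lines, the alcohol-preferring (P) and the alcohol non-preferring (NP) line. All rats were alcohol-naïve and labelled as doubly housed. The P line had 4 rats, numbered 1 to 4, and the NP line had 3, numbered 2 to 4, with 1 biotin-labelled, 1-colour array per rat. The authors dropped a further NP array in quality control. The date in the header of each scanner file took 3 values. It is called the scan date here, and which step it dates was not checked further. Date 1 held P 1, P 2, NP 2 and NP 3, date 3 held P 3 with P 4, and date 2 held NP 4 alone. A project label in the file headers splits the arrays in another way, with those of date 1 under label 1 and P 3, P 4 and NP 4 under label 2.

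Proteins made in the endoplasmic reticulum leave it in vesicles with a COPII coat and reach the Golgi, while COPI vesicles carry material between Golgi cisternae and back to the endoplasmic reticulum. The p24 (Tmed) proteins span the vesicle membrane, bind coat subunits with their cytoplasmic tails and select cargo, among it proteins with a lipid anchor. Neurons and glia depend on this route for their receptors, channels and secreted factors.

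Tmed9, a p24 protein of the Golgi and of the compartment before it, read differently with its 2 probes. Both probes carry the same transcript accession. Probe GE18004 read 10.15, 10.77, 11.20 and 11.33 in P 1 to P 4 (log2 normalized signal), against 7.04, 7.16 and 7.24 in NP 2 to NP 4. Every P rat lay far above every NP rat. The mean was 10.86 ± 0.53 in P (SD, n = 4) and 7.15 ± 0.10 in NP (SD, n = 3). The difference, P minus NP, was 3.71 ± 0.24 on the log2 scale (SE), or 13.1-fold. This was the second largest difference among the 29003 probes tested. The normexp offset of 50 used here reduces folds of dim probes, and with plain background subtraction the log2 difference was 4.31.

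The same contrast was visible in the scanner values before any normalization. After subtraction of the local background, GE18004 had intensities of 975, 1269, 3025 and 2931 in P 1 to P 4, against 87.2, 87.5 and 103 in NP 2 to NP 4. The local background of that spot was 50 to 74 in P and 51 to 57 in NP, so the NP spots were dim yet above it. The scanner flagged the spot as good on all 7 arrays.

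Probe GE1213656 of Tmed9 read 10.68, 10.58, 10.51 and 10.56 in P 1 to P 4, against 10.47, 10.59 and 10.68 in NP 2 to NP 4. Each line held values above and below those of the other. The difference was 0.00 ± 0.11, with a 95% interval of -0.25 to 0.25. Its background-subtracted intensities were 1089 to 1884 in P and 1330 to 1716 in NP, so this probe was bright in both lines. The difference read by GE18004 was not tested against that of this probe. The sequences of the probes were not used here, and which part of the transcript each of them reads was not tested.

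**Figure D1:**
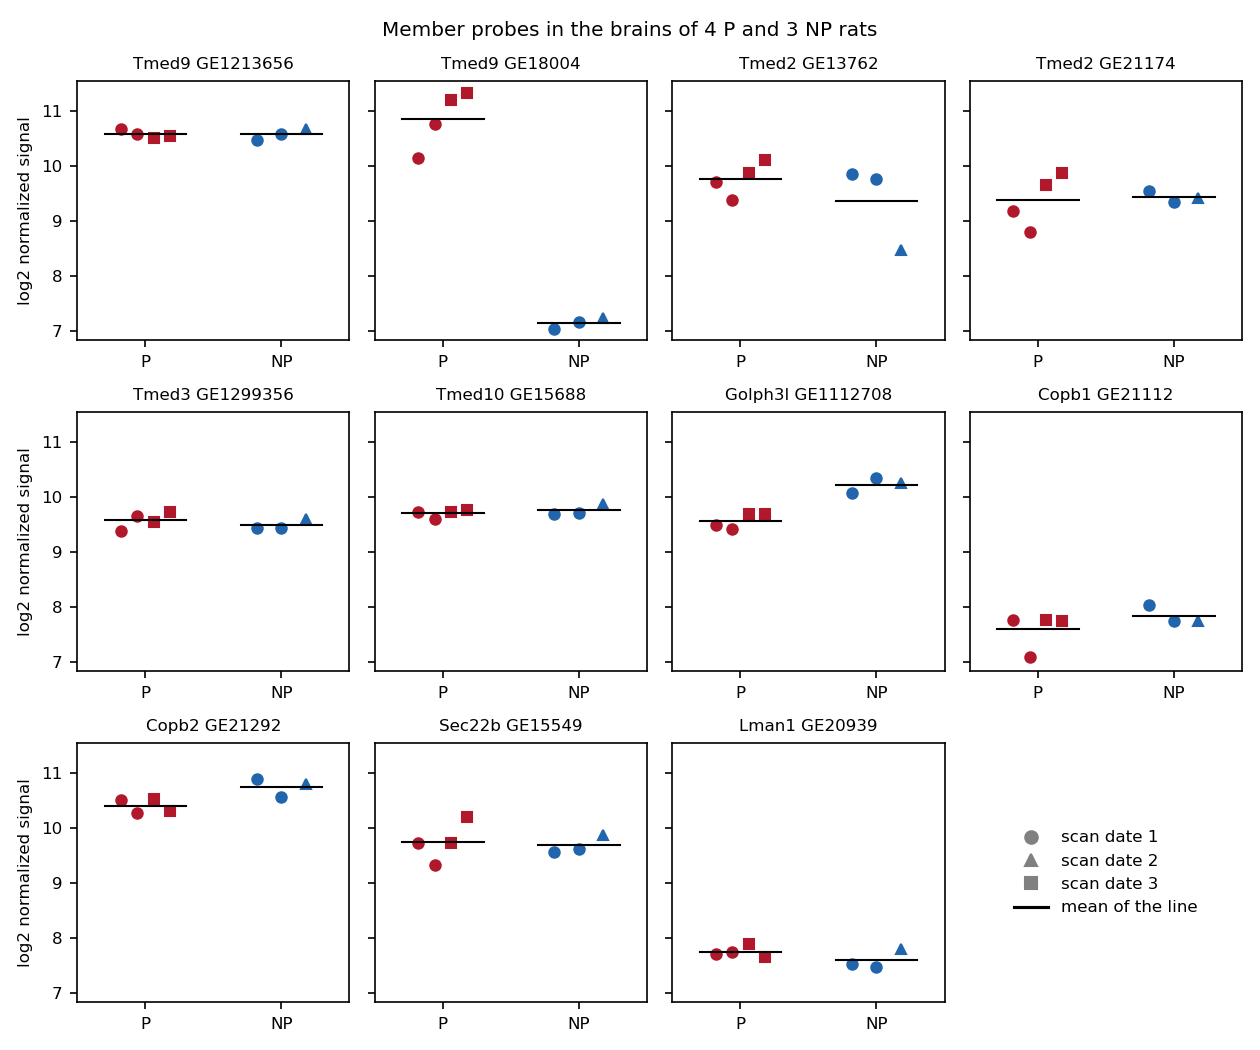
Log2 normalized signal of the 11 member probes in each rat, with P on the left and NP on the right of each panel, the symbol giving the scan date and the bar the mean of the line. For Tmed9 probe GE18004 the 4 P rats lie between 10.15 and 11.33 and the 3 NP rats between 7.04 and 7.24, while for the other Tmed9 probe the lines overlap.

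Tmed2, a p24 protein that forms complexes with Tmed10, also had 2 probes. Probe GE13762 read 9.72, 9.39, 9.87 and 10.12 in P 1 to P 4, against 9.86, 9.76 and 8.47 in NP 2 to NP 4. NP 4 stood apart from all other rats. The difference was 0.41 ± 0.31 (adjusted p = 0.596 by limma), and without NP 4 it was -0.03 ± 0.20. Probe GE21174 of the same transcript read 9.19, 8.80, 9.65 and 9.88 in P 1 to P 4, against 9.54, 9.34 and 9.43 in NP 2 to NP 4. With this probe NP 4 lay between the other NP rats, and the P rats lay on both sides of the NP rats. The difference was -0.06 ± 0.23 (adjusted p = 0.937 by limma). For Tmed2, too, a value that was low in 1 probe was not low in the other.

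Tmed10, which pairs with Tmed2, read 9.73, 9.60, 9.73 and 9.76 in P 1 to P 4, against 9.69, 9.72 and 9.87 in NP 2 to NP 4. All 7 rats were close together, with a difference of -0.05 ± 0.11 (adjusted p = 0.862 by limma). Tmed3, another p24 protein, read 9.38, 9.65, 9.55 and 9.74 in P 1 to P 4, against 9.44, 9.44 and 9.61 in NP 2 to NP 4. The lines overlapped, with a difference of 0.08 ± 0.12 (adjusted p = 0.803 by limma). Their 95% intervals ran from -0.30 to 0.19 for Tmed10 and from -0.19 to 0.36 for Tmed3.

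Golph3l is a paralogue of Golph3, a protein that binds phosphatidylinositol phosphate on the Golgi membrane and, in human cells, links it to an unconventional myosin. Its probe GE1112708 read 9.49, 9.43, 9.69 and 9.69 in P 1 to P 4, against 10.07, 10.35 and 10.26 in NP 2 to NP 4. Each P rat was below each NP rat, in the main values and in all 5 other processings of the signal. The mean was 9.58 ± 0.13 in P (SD, n = 4) and 10.23 ± 0.14 in NP (SD, n = 3), and the difference was -0.65 ± 0.13. P therefore had 0.637 times the NP signal. Among all tested probes 1.03% had a larger difference.

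The Golph3l probe was well lit in both lines. Its background-subtracted intensities were 607, 449, 1036 and 936 in P 1 to P 4, against 1021, 1120 and 1264 in NP 2 to NP 4. Before arrays were scaled to each other, P 3 thus lay slightly above NP 2. On the arrays of scan date 1 alone the difference was -0.75 ± 0.14, and with the P rats of scan date 3 set against all NP rats it was -0.54 ± 0.13. In tissue RNA, fewer cells of a type and less RNA per cell cannot be told apart. Among the 5 microglia markers, Aif1 differed in the same direction as Golph3l (-0.81 ± 0.24) and Cd68 by -0.20, while Csf1r was at 0.23, Itgam at 0.13 and Cx3cr1 at -0.00043. The mean level of the 5, Aif1 included, was 8.53 to 8.63 in P arrays and 8.67 to 8.79 in NP arrays. Aif1 had the largest difference of the 5, of which 3 lay below 0 and 2 above. Each Csf1r value in P lay above each in NP. All 5 were above background on all 7 arrays. The part of microglia or of any other cell type in the Golph3l difference was not tested.

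Copb1 and Copb2 encode the beta and beta-prime subunits of the COPI coat. Copb1 read 7.76, 7.09, 7.76 and 7.75 in P 1 to P 4, against 8.04, 7.75 and 7.74 in NP 2 to NP 4. P 2 was the lowest of all rats and the others overlapped. The difference was -0.25 ± 0.18 (adjusted p = 0.583 by limma), and it was -0.09 ± 0.14 with P 1 and P 2 left out. Copb2 read 10.51, 10.27, 10.54 and 10.32 in P 1 to P 4, against 10.90, 10.57 and 10.81 in NP 2 to NP 4. Each P rat was below each NP rat, by as little as the gap between P 3 and NP 3. The difference of -0.35 ± 0.13 did not pass over all probes (adjusted p = 0.375 by limma), and the lines overlapped in 2 of 6 processings of the signal.

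Sec22b, a SNARE protein of fusion between the endoplasmic reticulum and the Golgi, read 9.73, 9.33, 9.74 and 10.21 in P 1 to P 4, against 9.57, 9.63 and 9.88 in NP 2 to NP 4. The P rats enclosed the NP rats. The difference was 0.06 ± 0.19 (adjusted p = 0.920 by limma), and its sign depended on the arrays used. Lman1, a mannose-binding lectin that carries glycoproteins, clotting factors among them, out of the endoplasmic reticulum, read 7.71, 7.75, 7.89 and 7.66 in P 1 to P 4, against 7.53, 7.48 and 7.80 in NP 2 to NP 4. The lines overlapped through NP 4. The difference was 0.15 ± 0.12 (adjusted p = 0.636 by limma), and it was 0.25 without NP 4 and 0.087 without NP 3.

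All 11 probes lay above background on all 7 arrays and all were tested. At an adjusted p under 0.05 by limma, 1 of the 11 was called, Tmed9 GE18004, where 0.29% of all tested probes were called. For 3 of the 11 (Tmed9 GE18004, Golph3l and Copb2) no P rat overlapped an NP rat, as for 13.3% of all probes with 7 values. Both counts include the probes for which the genes were chosen, so nothing is read from them. The median difference was 0.00 over the members and 0.01 over all tested probes, and the median size of a difference was 0.15 and 0.14. Apart from GE18004 and Golph3l, the 9 probes had adjusted p between 0.375 and 0.996.

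**Figure D2:**
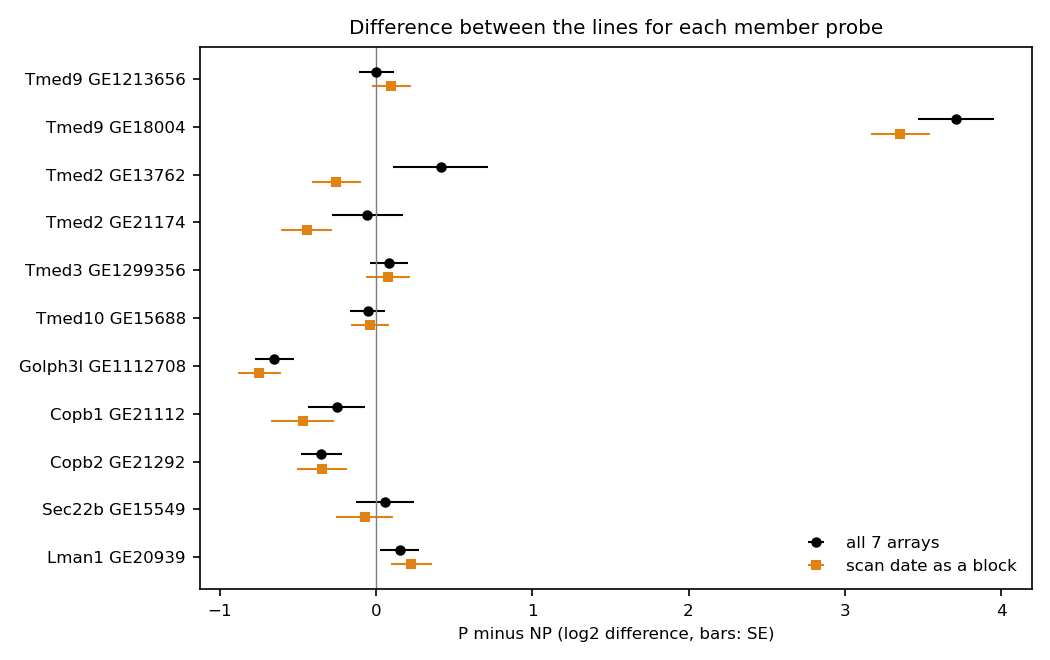
P minus NP difference of each member probe on the log2 scale, with bars for the SE, over all 7 arrays (circles) and with scan date as a block (squares). Tmed9 GE18004 lies at 3.71 and 3.36, Golph3l at -0.65 and -0.75, and the second Tmed9 probe at 0.00 and 0.10.

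Scan date bears on several of these values, because the lines shared date 1 only. With scan date as a block the line difference rests on P 1, P 2, NP 2 and NP 3. It was then 3.36 ± 0.19 for Tmed9 GE18004, 0.10 ± 0.13 for GE1213656 and -0.75 ± 0.14 for Golph3l. For the Tmed2 probes it was -0.25 ± 0.15 (GE13762, adjusted p = 0.327 by limma) and -0.44 ± 0.16 (GE21174, adjusted p = 0.129), both below 0. Copb1 was at -0.47 ± 0.20 (adjusted p = 0.180) and Copb2 at -0.35 ± 0.16 (adjusted p = 0.205). With the block 2 of the 11 member probes were called, Tmed9 GE18004 and Golph3l, where 5.72% of all probes were called. Both belong to genes chosen by the P minus NP contrast, so nothing is read from this count or from the counts of calls that follow. On date 1 alone the same 2 probes were called, where 6.47% of all probes were. With the project label as a block, a fit that uses all 7 arrays and was added after seeing the data, the difference was 3.62 ± 0.18 for Tmed9 GE18004, 0.00 ± 0.11 for GE1213656 and -0.68 ± 0.11 for Golph3l, and again the first and the last were called, where 0.838% of all probes were. Within label 2 alone, P 3 and P 4 against NP 4, it was 4.02 for GE18004, -0.15 for GE1213656 and -0.57 for Golph3l.

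The P rats of scan date 1 (P 1 and P 2) were also set against those of scan date 3 (P 3 and P 4), a contrast that was not used to choose the members. Tmed9 GE18004 averaged 10.46 in P 1 and P 2 and 11.26 in P 3 and P 4, a difference of -0.80 ± 0.19 (adjusted p = 0.0181 by limma). Tmed2 GE21174 averaged 8.99 in P 1 and P 2 and 9.77 in P 3 and P 4, a difference of -0.77 ± 0.16 (adjusted p = 0.0126 by limma). Both of these probes were thus lower on date 1. The second probe of each gene did not pass: GE1213656 of Tmed9 differed by 0.09 ± 0.13 (adjusted p = 0.646) and GE13762 of Tmed2 by -0.44 ± 0.15 (adjusted p = 0.0744).

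In all, 2 of 11 member probes (18.2%) were called in this contrast, both lower on date 1, against 17.2% of all probes tested in it (9.24% lower on date 1). The total share was close to the background. The difference was below 0 for 10 of the 11 member probes, which stand for 9 genes, with a median of -0.23. Of all probes 46.4% were lower on date 1, with a median of 0.03. Some of the 10 were within their SE of 0, as for Copb2 (-0.04 ± 0.16), Lman1 (-0.05 ± 0.13) and Tmed10 (-0.08 ± 0.12). Date and rats cannot be told apart here. The call for GE18004 was lost with plain background subtraction (adjusted p = 0.0945), with the deposited scaled intensity (adjusted p = 0.108) and in the authors' log2 values (adjusted p = 0.12). The call for GE21174 was lost in the same settings (adjusted p = 0.0739, 0.0592 and 0.0765).

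The wider pathway was read from 7 lists with 147 genes, of which 67 were tested by their brightest probe. Tmed9 enters these counts with GE1213656, its brighter probe over the 7 arrays, and its called probe GE18004 is left out of them. By that probe none of the 67 was called over all 7 arrays by limma, where 0.176% of all genes were. At an unadjusted p under 0.05 there were 10 of the 67 (14.9%), the chosen Golph3l among them, against 11.4% of all genes. The median difference was 0.04 over the pathway genes and 0.03 over all genes tested.

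Within the p24 family 6 of 11 genes were tested, and 5 had a difference above 0 (list median 0.12), with none called by its brightest probe and Tmed9 read from GE1213656. The non-member with the smallest p was Tmed1 (0.20 ± 0.14, adjusted p = 0.576 by limma). Of 9 genes of the COPI coat and its Arf cycle none was called. Arf5, a small GTPase that recruits coats to membranes, read 11.52, 11.21, 11.26 and 11.46 in P 1 to P 4, against 10.99, 10.81 and 10.84 in NP 2 to NP 4. Each P rat was above each NP rat, but the difference of 0.49 ± 0.12 did not pass over all probes (adjusted p = 0.245 by limma).

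Of 6 genes of the COPII coat and exit sites none was called. The smallest p was that of Sar1b, the GTPase that starts assembly of that coat. It read 10.34, 10.31, 10.61 and 10.93 in P 1 to P 4, against 10.97, 11.18 and 11.12 in NP 2 to NP 4. P 1 and P 2 were the lowest and P 4 lay just under NP 2, for a difference of -0.55 ± 0.16 (adjusted p = 0.302 by limma). Among 10 cargo and retrieval receptors none was called, with Yif1b, a membrane protein of transport to the Golgi, at 0.37 ± 0.12 (adjusted p = 0.338 by limma).

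Of 15 SNAREs and fusion factors none was called. Bet1l, a SNARE of traffic within the Golgi, read 9.39, 9.45, 9.47 and 9.38 in P 1 to P 4, against 8.90, 9.14 and 8.63 in NP 2 to NP 4. The P rats were nearly equal and lay above the more scattered NP rats, with a difference of 0.53 ± 0.13 (adjusted p = 0.245 by limma). None of 13 Golgi tethers, matrix proteins and small GTPases was called, with Gorasp1, a protein that stacks Golgi cisternae, at 0.44 ± 0.15 (adjusted p = 0.340 by limma). None of 8 genes of Golgi phosphoinositides and partners of Golph3 was called. Pi4k2a, a kinase that makes phosphatidylinositol phosphate on Golgi and endosomal membranes, was at 0.47 ± 0.18 (adjusted p = 0.393 by limma).

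**Figure D3:**
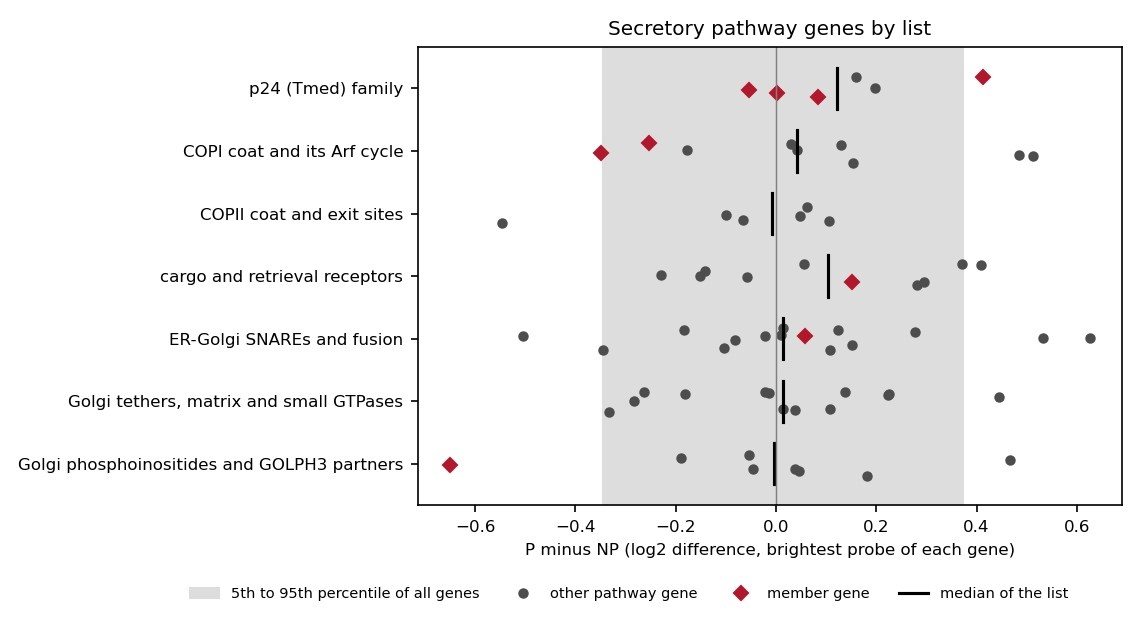
P minus NP log2 difference of the brightest probe of each tested gene in 7 secretory pathway lists, with members as diamonds, other genes as circles, list medians as bars and the range from the 5th to the 95th percentile of all 5677 genes shaded. List medians lie between -0.01 and 0.12, and Golph3l at -0.65 lies farthest below 0.

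With scan date as a block, 7 of the 67 pathway genes were called (10.4%), 2 higher and 5 lower in P. Golph3l, chosen by its P minus NP signal, is among the 5. Of the 58 pathway genes that are not members, 2 were called higher and 4 lower. Of all genes 5.58% were called with the block, 2.11% higher and 3.47% lower. Beside Golph3l, the genes lower in P were Scfd1, a partner of SNARE proteins (-0.80), Sar1b (-0.75), Trappc2, a subunit of a tethering complex (-0.56), and Sacm1l, a phosphatase that removes the phosphate from the Golgi lipid bound by Golph3 (-0.56). The genes higher in P were Pi4kb, a kinase that makes this lipid (0.56), and Gorasp1 (0.54). Scfd1, Trappc2, Sacm1l and Pi4kb were named after their values with the block were seen. Over all 7 arrays Sacm1l differed by -0.05 ± 0.22 and Pi4kb by 0.18 ± 0.21, so these calls are those of the 4 rats of date 1. Among the cell type markers 2 of 31 were called with the block, the microglial Aif1 (-1.23) and the endothelial Kdr (0.75). The other microglia markers were not called and lay above 0, with Csf1r at 0.18, Itgam at 0.29, Cx3cr1 at 0.0059 and Cd68 at 0.14. The other endothelial markers, Cldn5 at 0.22 and Flt1 at -0.20, were not called either. The part of Aif1 and Kdr in the calls of the pathway genes was not tested.

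The nearest tested genes on the chromosome were looked at for Tmed9 and Golph3l, in the gene order of the GRCr8 annotation. For Tmed9 these were Ddx46, Camlg and B4galt7 on one side and Pdlim7, Dbn1 and Grk6 on the other. Their differences lay between -0.30 and 0.40, and none was called (adjusted p of 0.365 or higher by limma). For Golph3l they were Arnt, Ctsk and Ctss on one side and Ensa, Mcl1 and Ecm1 on the other. Their differences lay between -0.27 and 0.34, and none was called (adjusted p of 0.375 or higher). Neither gene had a called gene among its 3 tested neighbours on each side. Of all genes 0.176% were called by their brightest probe, so nothing is read from this.

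The probes whose profile over the 7 arrays was most like that of Tmed9 GE18004, among 6267 probes with a gene name, were those of Mmadhc (Pearson r = 0.98), Bnip3 (0.98), Klk1 (0.98), Fth1 (0.97) and Pik3c3 (0.97). These are descriptions over 7 arrays that share the split into lines. Mmadhc read 8.68 ± 0.33 in P and 6.36 ± 0.14 in NP (SD, n = 4 and 3), and was thus also higher in P. Pik3c3, a lipid kinase of autophagy, read 9.06 ± 0.03 in P and 8.81 ± 0.05 in NP, so a like profile can go with a small difference. Klk1 read 6.44 ± 0.03 in P and 6.11 ± 0.02 in NP, near the negative control spots (6.19 to 6.33 before normalization between arrays).

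For the Tmed9 probe GE1213656 the likest probes were those of Taar8a (r = 0.95), Prss12 (0.92), Rab29 (0.91), Cnot8 (0.91) and Procr (0.91), none of them shared with GE18004. For Golph3l they were Ddit3 (0.97), Plek (0.97), Pyroxd1 (0.96), Timm10 (0.96) and Haus1 (0.96). Ddit3, a transcription factor of endoplasmic reticulum stress, read 9.54 ± 0.08 in P and 9.79 ± 0.05 in NP. Plek, a protein of blood and immune cells, read 7.04 ± 0.05 in P and 7.53 ± 0.10 in NP. Timm10 GE1135776, a mitochondrial import chaperone, read 8.67 ± 0.37 in P and 10.27 ± 0.17 in NP, the widest gap of these 5.

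**Figure D4:**
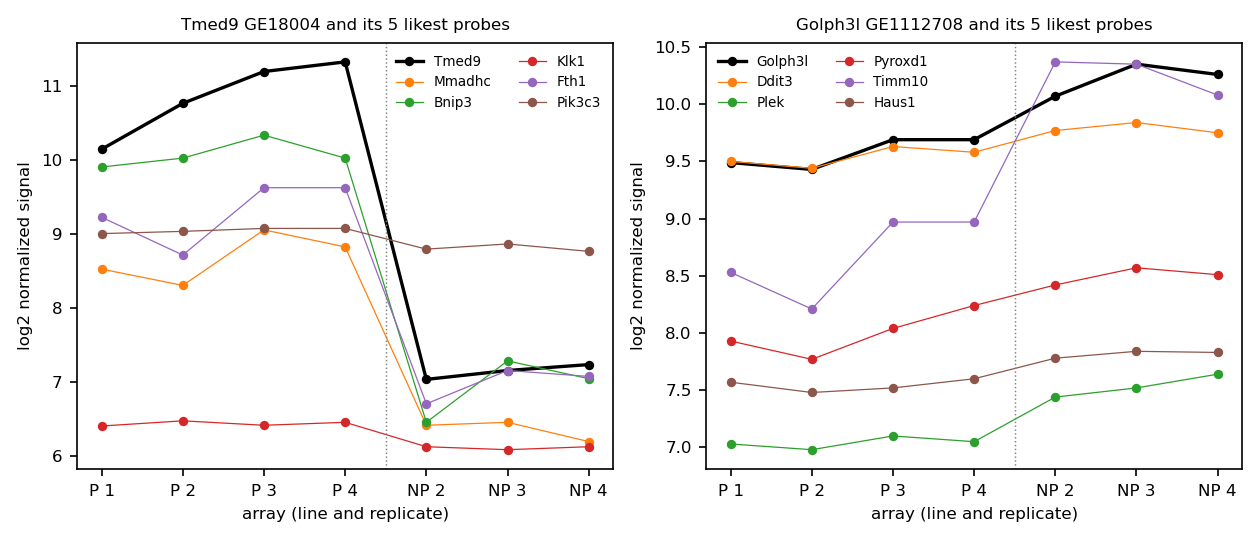
Log2 normalized signal by array for Tmed9 GE18004 (left) and Golph3l (right), in black, with the 5 named probes most correlated with each over the 7 arrays. Mmadhc, Bnip3 and Fth1 lie higher in P than in NP, as Tmed9 GE18004 does, while Klk1 and Pik3c3 follow its shape with a small difference.

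Of the 33849 transcript probes, 77.9% to 81.6% were above background in P arrays and 81.5% to 85.9% in NP arrays. Of 31 tested markers of brain and neighbouring cell types, 26 were above background on all arrays, and none was called between the lines over all 7 arrays. An unadjusted p under 0.05 by limma was seen for 5, where 11.4% of all genes had one. These were Aif1 (-0.81), Asmt (-0.57), Aqp4 (-0.45), Mog (-0.45, with 2 P values) and Kcne2 (-0.32), all lower in P. The other markers of microglia, astrocytes, oligodendrocytes and choroid plexus lay on both sides of 0 within each type. Beside Asmt the only pituitary and pineal marker tested was Prl (0.17). The part of the 5 markers lower in P in the member differences was not tested. Neuronal Uchl1 and Nefl and oligodendrocyte Mbp were bright in both lines (above background on all 7 arrays), while the probe of Snap25 was above background on 1 of 4 P and 2 of 3 NP arrays.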

How the data were processed

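Biotin-labelled RNA of each rat's whole brain was put on an array of its own, in 1 colour, per the labels. The deposited scanner tables give, per the file headers, spot and local background intensity, a background-subtracted and a scaled intensity, and flags. The authors' deposited log2 values correlated with log2 scaled intensity at r = 0.9985 or more on each array. What else was done to them, and the scanner software, is not stated in the labels or headers.

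Intensities were corrected by normexp (offset 50) and quantile normalized over transcript probes with limma 3.58.1 in R 4.3.3. Masked, irregular and contaminated spots were treated as missing. Kept were 29008 probes with a signal above background on 3 or more of 7 arrays, of which 29003 could be fitted. Probes were named through RefSeq transcripts of GRCr8 (7207 of 33849 probes, 6046 genes). Lines were compared with lmFit and eBayes, two-sided, with Benjamini-Hochberg adjustment over all fitted probes and a call at 0.05. The P rats of scan dates 1 and 3 were contrasted in a fit with a mean for each line and date, over 27255 probes with 7 values. Replicates are separate rats, and their number limits the precision. The fit was tested on simulated data. Figures were drawn with matplotlib 3.10.9.

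The members and lists were chosen with earlier results of these data known. Named are all member probes, from each list up to 3 called non-members per direction or else the one with the smallest p, and the 5 probes most correlated with each Tmed9 probe and with Golph3l. The look at chromosomal neighbours was added later. Alternatives were other background corrections, scalings, filters, variance models and array weights, the authors' values, replicate number, scan date and the header's project label as blocks, and arrays or scan dates left out. Deviations from the line means of same-numbered P and NP rats correlated at 0.02 to 0.10. Rats numbered 3 and 4 had different scan dates in the lines, so this cannot show whether the numbers paired the rats.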

Additional observations from a re-analysis of the deposited data

Results flagged for a closer look

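Among the 4 P values of each member probe and of each pathway gene named by rule, 2 of 18 sets held a rat far from the other 3, where chance gives about 1 in 20. For Copb1 GE21112, P 2 read 7.09 and the other P rats 7.75 to 7.76. For Yif1b GE1270408, P 1 read 10.26 and the others 10.15 to 10.17. The rule took the gap to the nearest rat as a share of the range (0.977 for Copb1, 0.845 for Yif1b), whatever its size. The Yif1b gap was small on the log2 scale and stood out only within a tight set of values. The NP line, with 3 rats, was not tested in this way.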

How the results depend on the processing

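Over 24 alternatives Tmed9 GE18004 kept its direction and its call, with log2 differences of 3.31 to 4.33. Golph3l stayed below 0 in all 24 (-0.76 to -0.54) and passed the threshold in 6: array weights, scan date as a fixed block, scan date as a random block, date 1 alone, without the P rats of date 3, and the project label as a block. In those 6 settings 2 member probes were called, GE18004 and Golph3l, both of genes chosen by this contrast. With the 3 arrays of project label 2 alone, a setting chosen after seeing the data like the other with this label, 2 were called too, the second being Tmed2 GE13762 at 1.52, which rests on NP 4 as the only NP rat, assumed to vary like the P rats. In the remaining settings 1 was called. Copb2 and Tmed3 kept their sign and were not called in any of the 24.

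The other members changed sign in some settings, and apart from Tmed2 GE13762 above none was called. Tmed9 GE1213656 was at -0.0034 in the authors' log2 values, -0.031 with the replicate number as a block and -0.045 without the P rats of date 1, and at -0.051 to 0.052 with 1 array left out. With project label 2 alone it was at -0.15, Copb1 at 0.018 and Lman1 at -0.023. Between the P rats of dates 1 and 3 it was at -0.084 with median scaling. Tmed2 GE13762 was at -0.25 with scan date as a block and on date 1 alone, and at -0.032 to 0.66 with 1 array left out. Tmed2 GE21174 was at 0.0060 with the replicate block, 0.33 without the P rats of date 1 and with project label 2 alone, and -0.22 to 0.14 with 1 array left out. Tmed10 was at -0.088 to 0.0024 with 1 array left out. Sec22b was at -0.071 with scan date as a block and on date 1 alone, -0.018 with it as a random block, -0.0060 with the project label as a block, -0.17 without the P rats of date 3 and -0.094 to 0.20 with 1 array left out. The replicate block changed no call of a member.

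Over all probes 84 were called. The count was 51 with the deposited scaled intensity and in the authors' log2 values, 49 with only probes above background on all arrays, 154 with array weights, 243 with the project label as a block, 159 with scan date as a random block and 1660 as a fixed block. It was 1870 on date 1 alone, 3318 without the P rats of date 3, 189 without those of date 1, and 51 (without NP 4) to 121 (without P 3) with 1 array left out. Of the 67 pathway genes none was called by limma over all 7 arrays (10 at an unadjusted p under 0.05), 1 with array weights, scan date as a random block or the project label as a block, 2 with project label 2 alone, 7 with scan date as a fixed block, 8 on date 1 alone and 9 without the P rats of date 3. Golph3l, chosen by its P minus NP signal, is 1 of the 67. The causes were not tested. The number of arrays limits what could be seen.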
